A study of Mus musculus with 4 samples.

Results

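Endothelial cells line blood and lymphatic vessels, pericytes and smooth muscle cells wrap them, and myoepithelial cells are contractile epithelial cells around glands that share their contractile genes with smooth muscle. The 36 marker genes described here were chosen by symbol to cover these cell types, and all 36 were found among the 23281 genes of the deposited table. They hold 19 endothelial and lymphatic genes, 3 pericyte genes and 14 smooth muscle, contractile and myoepithelial genes. Levels come from RNA sequencing of 1 library of mouse respiratory basal cells (RBCs), sorted stem cells of respiratory epithelium, and of 3 libraries of cultured horizontal basal cells (HBCs), the reserve stem cells of the olfactory epithelium. The RBCs were microdissected and sorted as TdTomato+ from a KRT5-CreER;Ai9-fl(stop)TdTomato mouse strain, in which a tamoxifen-inducible Cre under the keratin 5 promoter turns on a red reporter in cells with keratin 5 activity and in their descendants. The HBCs came from wildtype mice, were grown under control conditions to passage 3, and have no sort recorded. The labels give no age and no number of animals for any library, nor whether different animals gave the HBC cultures.

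All levels are depth-scaled FPKM, that is, the authors' values (fragments per kilobase of transcript) divided by 1 factor per library. Deposited values summed to 9877610 in the RBC library and to between 8377230 and 10856000 in the HBC libraries, and the depth in reads is unknown. The RBC value is a single library without a replicate, and HBC means are given with their SD (n = 3). Keratin 5 was high in both groups, at 26488 in the RBC library and 18625 ± 369 in HBC libraries. The RBCs were sorted on a keratin 5 reporter, so its level there is no independent check of the basal cell label. Trp63, a transcription factor of basal cells, was at 4307 in the RBC library and 546 ± 12.8 in HBC libraries. A gene was called when limma's Benjamini-Hochberg adjusted p was under 0.05 and the change was at least 2-fold on the log2(value + 1) scale. The spread behind these p-values comes from the HBC libraries alone, may be technical, and is assumed to hold for the lone RBC library. For a single gene, an exact permutation test of 1 against 3 libraries cannot give a p below 0.25. In bulk samples, fewer cells of a type and less RNA per cell cannot be told apart. Basal cell type, sorting against culture, and reporter strain against wildtype mice all differ together between the groups. Their parts in any difference cannot be told apart either.

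Most of the marker genes were higher in the RBC library, but a few vascular genes stood out in the cultured HBCs. Of the 36 genes, 32 were high enough to test. Among these, 22 were called higher in RBCs, where the share among all 16440 genes tested was 34.2%, and 4 were called higher in HBCs, where that share was 12.8%. The other 6 were not called. The median log2 change of the 32 genes was 2.63, beside 0.45 for all genes tested. These counts cannot be read as support for a shared change, because 14 of the 32 averaged below 1 in HBC libraries and entered the test through their RBC value. Of the 26 calls, 84.6% were towards RBCs, a share of 80.0% with library medians set equal and 64.7% under quantile normalization, where 11 genes were called higher in RBCs and 6 in HBCs. Over all genes, 72.8% of calls were towards RBCs, against 54.9% with medians set equal and 46.3% under quantile normalization. Those scalings moved the median log2 change of all genes by -0.50 and -0.54.

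**Figure D1:**
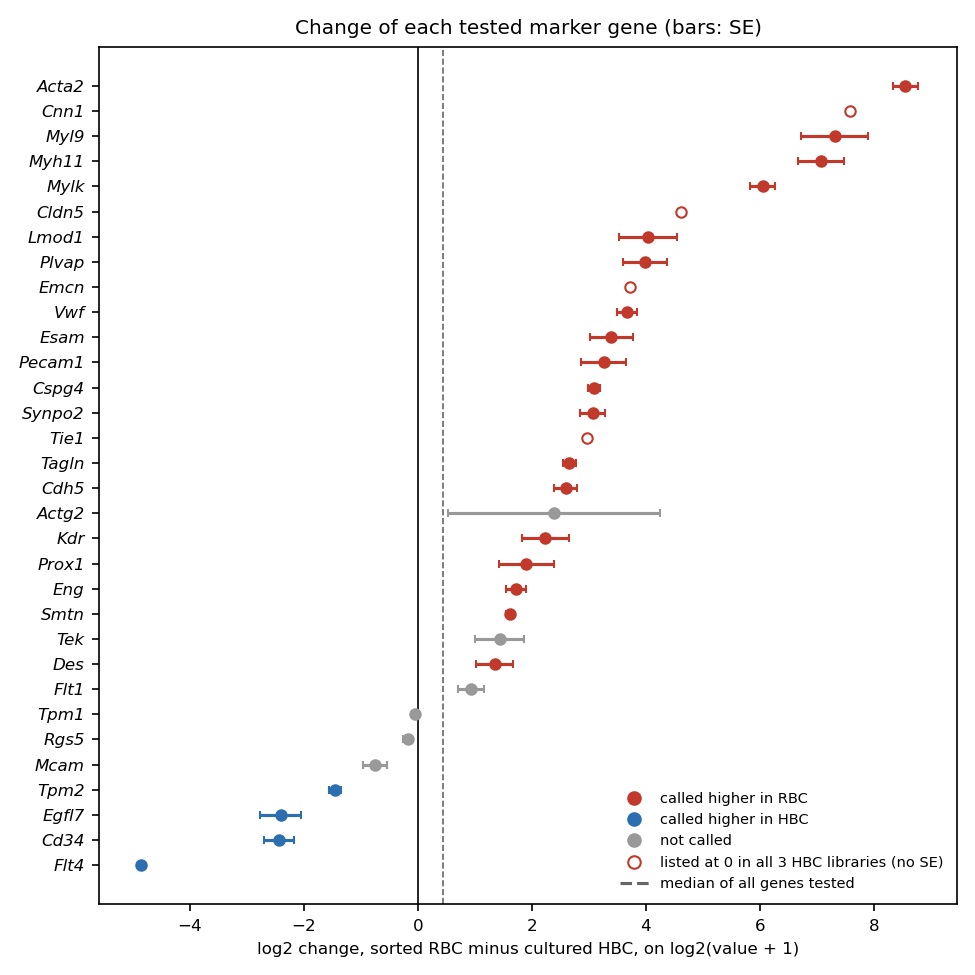
Log2 change (RBC minus HBC, on the log2(value + 1) scale) of the 32 marker genes tested, with limma's SE as bars and the median of all genes tested as a dashed line. Acta2 lies farthest to the right at 8.55 and Flt4 farthest to the left at -4.85, and open circles mark 4 genes listed at 0 in all 3 HBC libraries.

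The contractile genes that define differentiated smooth muscle and myoepithelial cells reached the highest levels of the RBC-side genes and were near 0 in the cultures. Acta2, smooth muscle alpha-actin, was at 881 in the RBC library and at 0.980, 1.57 and 1.56 in HBC libraries 1, 2 and 3 (log2 change 8.55 ± 0.22 SE, limma adjusted p = 0.000686). That RBC level was above 92.8% of all genes in the library, and the HBC mean was above 41.7% of all genes. Cnn1, the actin-binding protein calponin, was at 189 in the RBC library and listed at 0 in all 3 HBC libraries. Myh11, the smooth muscle myosin heavy chain, was at 181 in the RBC library and at 0.727, 0.438 and 0 in HBC libraries (log2 change 7.07 ± 0.40 SE, limma adjusted p = 0.00263). For these genes the RBC library stood far above every HBC library.

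Tagln, the actin cross-linker transgelin, differed from that pattern because it was clearly present in culture. It was at 235 in the RBC library and at 33.5, 37.0 and 38.7 in HBC libraries, a 6.45-fold higher level in RBCs (limma adjusted p = 0.00174). Lmod1, an actin filament nucleator, was at 34.9 in the RBC library and 1.28 ± 0.833 in HBC libraries, and Synpo2, an actin-bundling protein of muscle, was at 20.3 in the RBC library and 1.57 ± 0.391 in HBC libraries. Both were called higher in RBCs. Leaving out HBC library 2 ended the Lmod1 call; limma's adjusted p was then 0.0621, the highest of its alternatives (lowest 0.0030). Quantile normalization left Synpo2 at a log2 change of 0.65, below the 2-fold minimum.

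The remaining genes of this group gave little evidence of either direction. Des, the muscle intermediate filament desmin, was at 1.90 in the RBC library and at 0, 0.479 and 0 in HBC libraries. The deposited values correspond to 4 times the smallest listed value of that gene in the RBC library and to 0, 1 and 0 times in HBC libraries, with a tolerance of 0.1. Des was called (limma adjusted p = 0.0434), but 8 of the 10 alternatives that tested it did not keep the call, and its sign turned under quantile normalization (log2 change -0.34). Its limma adjusted p was 0.130 when HBC library 1 was left out and 0.128 when library 3 was, and alternatives spanned 0.0214 to 0.464. Actg2, the enteric smooth muscle actin, was at 10 in the RBC library and at 8.34, 0 and 0 in HBC libraries, so that HBC library 1 alone held it. Actg2 was not called (limma adjusted p = 0.327), was called higher in RBCs without library 1 (log2 change 3.46, with both other HBC libraries at 0) and had a log2 change of -0.02 under quantile normalization. Acta2 and Actg2 encode near-identical actins, so the split of reads between such genes is uncertain. Oxtr, the oxytocin receptor of myoepithelial cells, was too low to test, at 1.06 in the RBC library and at 0, 0.214 and 0.211 in HBC libraries.

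Regulators and structural partners of contraction that many cell types express divided between the groups. Myl9, a regulatory light chain of smooth muscle and non-muscle myosin, was at 623 in the RBC library and at 5.27, 2.11 and 2.10 in HBC libraries (log2 change 7.31 ± 0.59 SE, limma adjusted p = 0.00486). Mylk, the kinase that phosphorylates that light chain, was at 161 in the RBC library and at 1.83, 1.47 and 1.09 in HBC libraries (log2 change 6.05 ± 0.22 SE, limma adjusted p = 0.00125). Enzyme and substrate were thus both below 6 in every HBC library. Smtn, the actin-associated protein smoothelin, was at 120.2 in the RBC library and at 38.5, 38.4 and 38.4 in HBC libraries (3.12-fold higher in RBCs, limma adjusted p = 0.00153), and its log2 change under quantile normalization, 0.83, was below the 2-fold minimum.

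Tropomyosins, which coil along actin filaments, went the other way or did not differ. Tpm1 was the highest of all 36 genes in each library, at 3645 in the RBC library and at 3684, 3826.5 and 3779 in HBC libraries. Its log2 change was -0.05 ± 0.03 SE (limma adjusted p = 0.276), and the sign turned with values as deposited (0.07), with equal column sums (0.055) and with quantile normalization (0.28). Tpm2 was at 139 in the RBC library and at 356, 382.5 and 407 in HBC libraries, 2.75-fold lower in RBCs (limma adjusted p = 0.00350). The related non-muscle gene Tpm4 was 4.58-fold lower in RBCs (1390 in the RBC library, 6368 ± 173 in HBC libraries). Among the summed level of Tpm1, Tpm2, Tpm3 and Tpm4, Tpm1 made up 57.8% in the RBC library and 28.7%, 29.8% and 29.6% in HBC libraries. Tpm2 overlaps Car9 in the RefSeq gene table, and Car9, a carbonic anhydrase, was at 8.43 in the RBC library and 221 ± 13.6 in HBC libraries. No source used here states the strand setting of the counting, so reads of these 2 genes may not be separable, and the part of Car9 in the Tpm2 difference was not tested. The same limit holds for Tagln, which overlaps Pcsk7 (242 in the RBC library, 239.6 ± 27.9 in HBC libraries), and for Eng and Plvap, which overlap Fpgs and Gtpbp3.

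**Figure D2:**
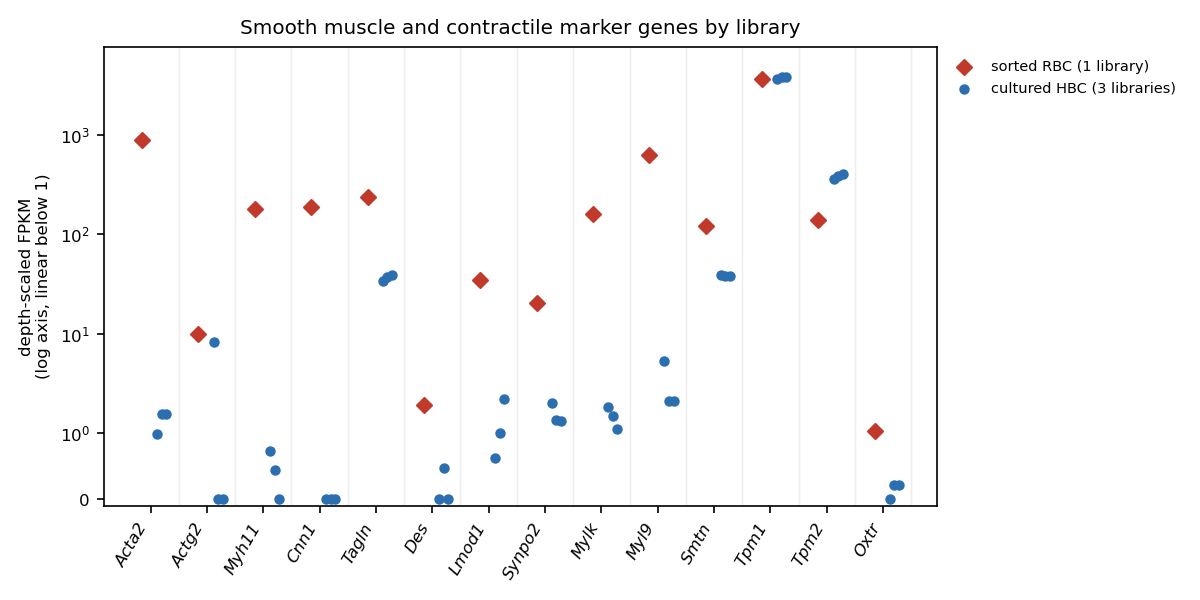
Depth-scaled FPKM of the 14 smooth muscle, contractile and myoepithelial marker genes in the RBC library (red diamonds) and each HBC library (blue dots), on a log axis that is linear below 1. Acta2, Myh11, Cnn1, Mylk and Myl9 lie between 161 and 881 in the RBC library and below 6 in every HBC library, whereas Tpm1 lies near 3645 in the RBC library and 3763 in HBC libraries.

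Contractile genes are known targets of serum response factor (SRF), which binds the CArG box, a motif of CC, 6 bases of A or T, and GG. Promoter windows of 300 bases (250 before to 50 after the start, RefSeq, build GRCm38.p6) were available for 25 of the 36 genes. An exact CArG box stood in the window of Myl9 alone, and 1.63% of all 32851 windows held such a box. With 1 mismatch allowed among the A or T bases, 6 of the 25 genes (Acta2, Myl9, Eng, Kdr, Tek and Egfl7) held a box, and 9.98% of all windows did. The 25 genes had 28 windows, so these counts of genes and shares of windows are unlike measures. The motif reads the same on the reverse strand, so a single search covers both. The windows of Acta2 (chr19:34255324-34255623, minus strand) and Myl9 (chr2:156775214-156775513, plus strand) are shown 5′ to 3′. They were picked because they are the contractile genes called higher in RBCs whose windows held a box. Capitals mark the boxes.
Acta2: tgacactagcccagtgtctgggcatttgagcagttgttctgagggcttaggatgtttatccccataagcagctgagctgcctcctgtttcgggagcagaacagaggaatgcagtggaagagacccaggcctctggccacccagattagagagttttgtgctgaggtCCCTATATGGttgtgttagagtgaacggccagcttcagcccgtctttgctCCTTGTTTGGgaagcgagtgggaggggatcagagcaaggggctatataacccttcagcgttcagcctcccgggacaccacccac
Myl9: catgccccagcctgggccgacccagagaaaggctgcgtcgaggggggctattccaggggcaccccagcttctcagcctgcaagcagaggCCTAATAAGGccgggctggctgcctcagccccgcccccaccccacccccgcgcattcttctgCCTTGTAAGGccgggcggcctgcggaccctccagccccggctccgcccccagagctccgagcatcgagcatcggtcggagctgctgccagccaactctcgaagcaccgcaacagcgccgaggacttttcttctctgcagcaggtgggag
In Acta2 the boxes begin 84 and 34 bases before the start and each has 1 mismatch. In Myl9 the exact box begins 161 bases before the start and a box with 1 mismatch begins 99 bases before it. Of the 10 contractile genes called higher in RBCs, 8 had a window, and no box with up to 1 mismatch was found in 6 of them, Cnn1, Mylk, Lmod1, Smtn, Synpo2 and Des. A match is a run of letters and not a measured binding site, and no binding was measured here.

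Srf and its cofactors were measured beside these genes. Srf itself was at 595 in the RBC library and 252 ± 3.74 in HBC libraries, 2.36-fold higher in RBCs (limma adjusted p = 0.000430), and the change fell under 2-fold with library medians set equal (log2 change 0.73). The cofactor Mkl2 was 3.48-fold higher in RBCs (338 in the RBC library, 97.3 ± 4.78 in HBC libraries). Myocd, the muscle-restricted cofactor myocardin, was at 0.194 in the RBC library and listed at 0 in HBC libraries, too low to test. Of 21 tested genes of the SRF and non-muscle actomyosin system, 4 were called towards RBCs, 5 towards HBCs and 12 were not called. Among all genes tested, 34.2% were called towards RBCs and 12.8% towards HBCs. With medians set equal the calls of the 21 genes were 1 towards RBCs and 10 towards HBCs. Fhl2, a LIM protein that binds SRF, was 11.7-fold lower in RBCs (85.8 in the RBC library, 1007 ± 31.6 in HBC libraries).

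Of 16 further contractile genes, 10 were called towards RBCs and 3 towards HBCs, where the shares among all genes tested were 34.2% and 12.8%. Of those 10, 5 averaged below 1 in HBC libraries and so passed the level filter through their RBC value. Kcnma1, the large-conductance potassium channel of smooth muscle, was at 132 in the RBC library and 0.576 ± 0.554 in HBC libraries. Pgm5, a protein of muscle adhesion plaques, was at 16.4 in the RBC library and 0.189 ± 0.232 in HBC libraries. Towards HBCs stood Cald1, the actin-binding protein caldesmon (375 in the RBC library, 1876 ± 26.2 in HBC libraries), and Filip1l (37.3 in the RBC library, 198 ± 7.22 in HBC libraries). Contractile genes high in the RBC library were thus accompanied by others, such as caldesmon and Tpm4, that were several-fold lower there.

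Endothelial surface and junction genes other than Cd34, which was higher in HBCs, were detected in the RBC library at low levels and averaged below 2 in the cultures. Plvap, the diaphragm protein of fenestrated vessels, was at 31.7 in the RBC library and at 1.28, 0.514 and 1.53 in HBC libraries (log2 change 3.99 ± 0.39 SE, limma adjusted p = 0.00704). Cldn5, the endothelial claudin, was at 23.7 in the RBC library, and Emcn, the sialomucin endomucin, was at 12.2 in the RBC library. Both were listed at 0 in all 3 HBC libraries. Pecam1 (12.2 in the RBC library, 0.406 ± 0.351 in HBC libraries), the adhesion molecule Esam (11.2 in the RBC library, 0.188 ± 0.326 in HBC libraries) and Cdh5, the endothelial cadherin (8.07 in the RBC library, 0.511 ± 0.218 in HBC libraries), were also called higher in RBCs. The levels behind these calls were small. Of 22 markers whose deposited values were compared with the gene's smallest one, 6 had whole multiples in all libraries within 0.1, namely Pecam1, Cdh5, Kdr, Tek, Des and Oxtr, and the other 16, Esam among them, did not. Deposited values of Cdh5 were 33 times its smallest listed value in the RBC library and 1, 3 and 2 times in HBC libraries, and those of Pecam1 were 20 times in the RBC library and 0, 1 and 1 times in HBC libraries. Under quantile normalization the calls of Pecam1, Cdh5 and Esam were lost, with log2 changes of 0.75, 0.02 and 0.94. With a pseudocount of 0.1, Pecam1 (limma adjusted p = 0.0818) and Esam (0.0566) also lost their calls. Of 16 tested endothelial and lymphatic genes, 11 were called towards RBCs, where the share among all genes tested was 34.2%. Of those 11, 8 averaged below 1 in HBC libraries and so passed the level filter through their RBC value. With a pseudocount of 0.1 the 11 calls became 7, and those over all genes fell from 5621 to 5001. The alternatives spanned adjusted p of 0.000808 to 0.220 for Pecam1 and 0.00185 to 0.122 for Esam in limma.

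The receptors through which endothelial cells sense growth factors were called in both directions. Flt4, the receptor of the lymphatic growth factors VEGF-C and VEGF-D, was at 4.92 in the RBC library and at 169, 167 and 172 in HBC libraries. It was 34.4-fold lower in RBCs (log2 change -4.85 ± 0.05 SE, limma adjusted p = 0.000111), and the HBC libraries differed from each other by a few percent. This call held in all 12 alternatives, with log2 changes of -6.85 to -4.14. No other receptor of the group had that pattern. Kdr, the main VEGF-A receptor of endothelium, was at 6.17 in the RBC library and at 0.443, 1.07 and 0.175 in HBC libraries, and Tie1, an orphan receptor of the angiopoietin system, was at 6.79 in the RBC library and listed at 0 in all 3 HBC libraries. Eng, the TGF-beta co-receptor endoglin, was at 17.8 in the RBC library and at 5.30, 4.91 and 3.99 in HBC libraries (3.77-fold higher in RBCs, limma adjusted p = 0.00783).

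Some of these receptor calls depended on an HBC library or on the scaling. Kdr was called towards RBCs (limma adjusted p = 0.0249), but not when HBC library 1 (limma adjusted p = 0.101) or library 3 (0.0621) was left out, and its alternatives spanned 0.00831 to 0.326. Its deposited values were 35 times the smallest listed value in the RBC library and 2, 6 and 1 times in HBC libraries. Flt1, a VEGF-A-binding receptor, was at 2.59 in the RBC library and 0.903 ± 0.285 in HBC libraries, and Tek, the angiopoietin receptor, was at 2.49 in the RBC library and 0.330 ± 0.406 in HBC libraries. Neither was called (log2 changes 0.93 and 1.44), although Tek was called higher in RBCs without HBC library 1 (limma adjusted p = 0.0375, while alternatives spanned 0.0324 to 0.372). Under quantile normalization the sign turned for Kdr (-0.47), Flt1 (-1.10), Tek (-0.50) and Eng (-0.68). Flt1 was then called towards HBCs (limma adjusted p = 0.0238, while its alternatives spanned 0.00452 to 0.161).

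**Figure D3:**
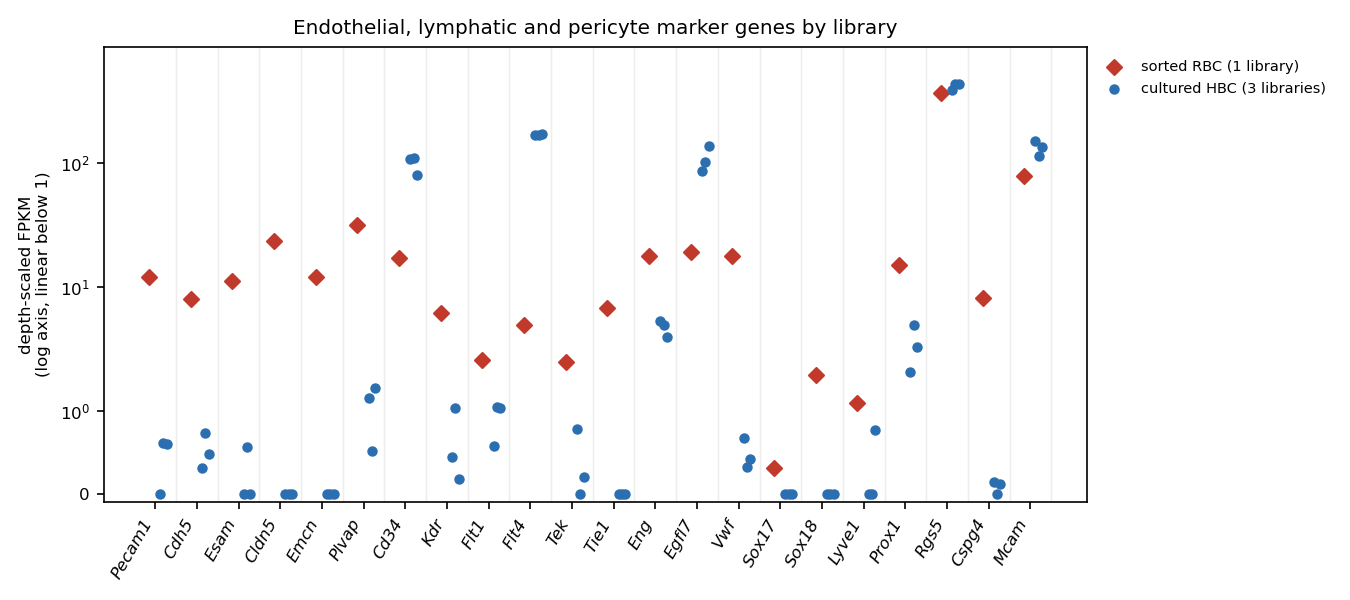
Depth-scaled FPKM of the 19 endothelial and lymphatic and 3 pericyte marker genes in the RBC library (red diamonds) and each HBC library (blue dots), on a log axis that is linear below 1. Most endothelial genes lie between 2 and 32 in the RBC library and below 6 in HBC libraries, whereas Flt4, Cd34 and Egfl7 lie between 4.92 and 19.3 in the RBC library and between 79.6 and 172 in HBC libraries.

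Cd34 and Egfl7 shared the direction of Flt4. Cd34, a sialomucin of endothelial and of several progenitor cells, was at 17.3 in the RBC library and at 107, 109.5 and 79.6 in HBC libraries, 5.71-fold lower in RBCs (limma adjusted p = 0.00833). Egfl7, a secreted endothelial matrix factor whose gene hosts the endothelial microRNA miR-126, was at 19.3 in the RBC library and at 85.6, 102 and 139 in HBC libraries, 5.63-fold lower in RBCs (limma adjusted p = 0.0155). HBC libraries were spread more widely for Egfl7 than for Flt4, and leaving out HBC library 2 ended the Egfl7 call (limma adjusted p = 0.0737, the highest of alternatives that began at 0.00142). Vwf, the clotting factor stored by endothelial cells, had the opposite pattern, at 17.7 in the RBC library and at 0.673, 0.325 and 0.426 in HBC libraries (log2 change 3.67 ± 0.17 SE, limma adjusted p = 0.00188).

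All 19 endothelial and lymphatic genes summed to 212 in the RBC library and to between 373 and 402 in HBC libraries. The sums below were split by the calls themselves, so their opposite directions follow from that choice. The 3 endothelial genes called higher in HBCs summed to 41.5 in the RBC library and to between 362 and 390 in HBC libraries. The other 16 endothelial and lymphatic genes summed to 171 in the RBC library and to between 11.4 and 14.8 in HBC libraries. The endothelial transcription factors Sox17 and Sox18 were below 2 in all 4 libraries. Sox17 was at 0.316 and Sox18 at 1.96 in the RBC library, both were listed at 0 in HBC libraries, and neither was tested. Of the lymphatic genes, the hyaluronan receptor Lyve1 was at 1.15 in the RBC library and at 0, 0 and 0.766 in HBC libraries and was not tested. Prox1, the lymphatic fate factor that other tissues also express, was at 15.1 in the RBC library and at 2.07, 4.98 and 3.28 in HBC libraries. Prox1 was called (limma adjusted p = 0.0479), but 9 of 12 alternatives did not keep the call, among them leaving out HBC library 1, 2 or 3 (limma adjusted p = 0.0754, 0.0547 and 0.149), and all alternatives spanned 0.0259 to 0.306. Quantile normalization turned its sign (log2 change -0.58).

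Genes that act with the HBC-side markers were drawn from lists of related genes. Nrp2, the co-receptor of Flt4, was at 21.4 in the RBC library and at 347, 355 and 353 in HBC libraries, 16.4-fold lower in RBCs (log2 change -3.98 ± 0.03 SE, limma adjusted p = 3.29e-05). Nrp1, the co-receptor of Kdr, was 2.93-fold lower in RBCs (94.6 in the RBC library, 277 ± 7.52 in HBC libraries). Podxl, a sialomucin of the same family as Cd34, was called towards HBCs too (43.6 in the RBC library, 218 ± 7.98 in HBC libraries). The ligands of Flt4 did not follow the receptor. Vegfc was at 10.5 in the RBC library and at 9.68, 3.33 and 11.5 in HBC libraries and was not called, and the sign of its log2 change of 0.46 turned with medians set equal (-0.04), under quantile normalization (-1.97) and without HBC library 2 (-0.01). Figf, which encodes VEGF-D, was at 105 in the RBC library and at 2.77, 0.557 and 1.10 in HBC libraries (limma adjusted p = 0.0100), a call that ended when HBC library 3 was left out (limma adjusted p = 0.0568, the highest of alternatives that began at 0.00233). Vegfa, the ligand of Kdr and Flt1, was abundant in both groups (2009 in the RBC library, 1864 ± 101 in HBC libraries) and not called (log2 change 0.11, and -0.39 with medians set equal).

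**Figure D4:**
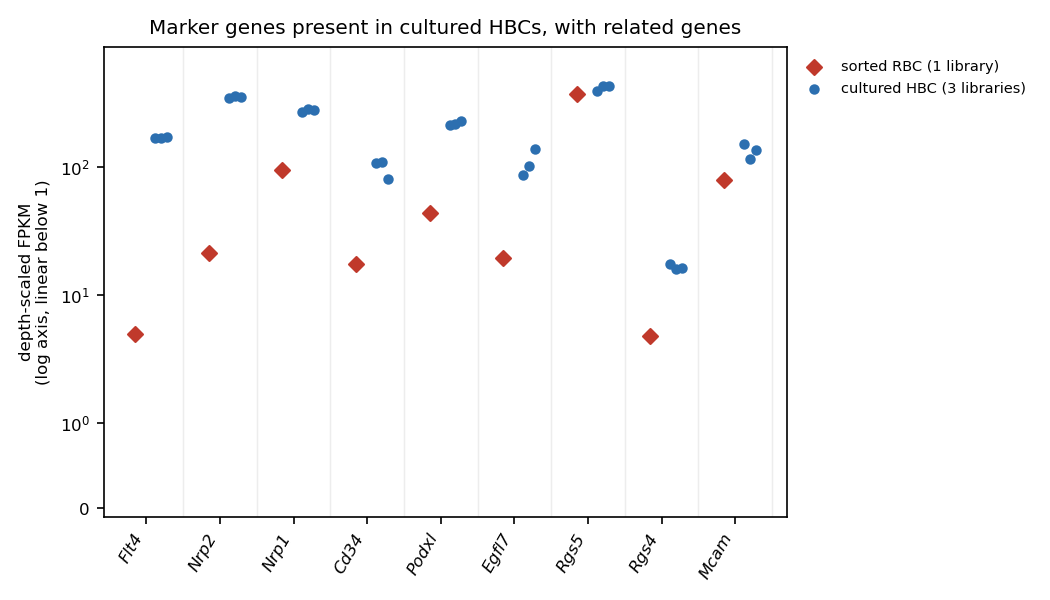
Depth-scaled FPKM of the vascular markers that were abundant in cultured HBCs, each beside related genes, in the RBC library (red diamonds) and each HBC library (blue dots), on a log axis that is linear below 1. Flt4 and its co-receptor Nrp2 lie at 4.92 and 21.4 in the RBC library and at 169 ± 2.11 and 352 ± 4.04 in HBC libraries, whereas Rgs5 is close in both groups.

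Of the 12 angiogenic ligands and co-receptors, 4 were called towards RBCs, 4 towards HBCs and 4 were not called. Angpt1, the ligand of Tek, was 12.5-fold higher in RBCs (149.7 in the RBC library, and 10.8, 15.4 and 9.74 in HBC libraries). Among 24 tested further endothelial genes, 16 were called towards RBCs and 2 towards HBCs, and under quantile normalization 3 were towards RBCs and 5 towards HBCs. The shares among all genes tested were 34.2% and 12.8%, and 14 of the 16 averaged below 1 in HBC libraries and so passed the level filter through their RBC value. Icam2, an endothelial adhesion molecule, was at 64.2 in the RBC library and at 0, 0 and 0.985 in HBC libraries. Ramp2, a co-receptor for adrenomedullin, was at 43.0 in the RBC library and at 0, 0 and 2.77 in HBC libraries. Its call (limma adjusted p = 0.0391) ended when HBC library 1 or 2 was left out (limma adjusted p = 0.121 in each case), and alternatives spanned 0.00893 to 0.121. Apart from Podxl, the gene towards HBCs was Cyyr1, at 1.01 in the RBC library and 10.3 ± 0.240 in HBC libraries.

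Pericyte markers did not move as a block. Rgs5, a regulator of G-protein signalling that marks pericytes in many tissues, was abundant in both groups, at 369.5 in the RBC library and at 392.3, 432 and 432 in HBC libraries (log2 change -0.18 ± 0.08 SE, limma adjusted p = 0.147). Mcam, an adhesion molecule of pericytes and endothelium, was at 78.4 in the RBC library and at 152, 114 and 134 in HBC libraries and missed both limits of a call (log2 change -0.75, limma adjusted p = 0.0556). Mcam was called towards HBCs under 2 scalings, equal library medians (log2 change -1.25) and quantile normalization (-1.66). Cspg4, the NG2 proteoglycan of pericytes, was at 8.25 in the RBC library and at 0.148, 0 and 0.117 in HBC libraries (log2 change 3.09 ± 0.11 SE, limma adjusted p = 0.00109), and was not called under quantile normalization (log2 change 0.55). The related gene Rgs4 was 3.49-fold lower in RBCs (4.73 in the RBC library, 16.5 ± 0.760 in HBC libraries). Of 12 tested further mural cell genes, 5 were called towards RBCs and Rgs4 alone towards HBCs. The shares among all genes tested were 34.2% and 12.8%, and 4 of those 5 averaged below 1 in HBC libraries. Under quantile normalization the mural cell genes called towards RBCs and HBCs numbered 2 and 2. Anpep, an aminopeptidase of pericytes that fibroblasts also express, was 79.9-fold higher in RBCs (902 in the RBC library, 11.3 ± 2.08 in HBC libraries). Pdgfrb, the growth factor receptor that defines mural cells, was at 13.8 in the RBC library and 0.965 ± 0.225 in HBC libraries. Mural cell genes thus differed widely in HBC libraries, with Rgs5 at 419 ± 22.9, Notch3 at 93.3 ± 6.05 and Pdgfrb near 1. Notch3 was at 163 in the RBC library and was not called.

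Most leukocyte and fibroblast markers were called towards RBCs too, whereas most skeletal muscle and erythroid genes were not. The part of other cell types in these results was not tested. Beside the counts that follow, 34.2% of all genes tested were called towards RBCs and 12.8% towards HBCs. Of 14 tested leukocyte markers, 12 were called towards RBCs and 1 towards HBCs, and the list of 15 summed to 16271 in the RBC library and to between 526 and 607 in HBC libraries. Single genes carried these sums, Lyz2 (lysozyme) with 14770 in the RBC library and Cd68, the marker called towards HBCs, with 65.7 in the RBC library and 478, 506 and 561 in HBC libraries. Of the 12 called towards RBCs, 8 averaged below 1 in HBC libraries. Of 11 fibroblast markers, 10 were called higher in RBCs and 5 under quantile normalization, with sums of 7937 in the RBC library and between 154 and 169 in HBC libraries, of which Dcn (decorin) held 6902 in the RBC library and 44.0 ± 11.8 in HBC libraries. Tyrobp, Fcer1g, Csf1r, C1qb and Mfap5 were listed at 0 in all 3 HBC libraries. Skeletal muscle shares Des, Tpm1 and Tpm2 with smooth muscle. Of its 9 markers, Ckm, Myh1, Myh2, Tnnt3 and Actc1 had a value of 0 in the RBC library, and the others were above 0. Myh1, Myh2, Tnnt3 and Actc1 were also at 0 in every HBC library. The 9 skeletal muscle markers summed to 43.6 in the RBC library and to between 71.7 and 88.3 in HBC libraries. Most of the RBC sum came from Mylpf, which was not called (33.7 in the RBC library, 16.6 ± 5.80 in HBC libraries). Most of the HBC sum came from Tnni2 (4.01 in the RBC library, 49.9 ± 5.76 in HBC libraries). Of 5 tested erythroid genes, 1, the haemoglobin gene Hbb-b1, was called higher in RBCs (103 in the RBC library), and the 6 listed summed to 395 in the RBC library and to between 54.9 and 111 in HBC libraries. All 9 basal cell genes were at 10 or more in both groups, and 6 were called towards RBCs and 1 towards HBCs.

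**Figure D5:**
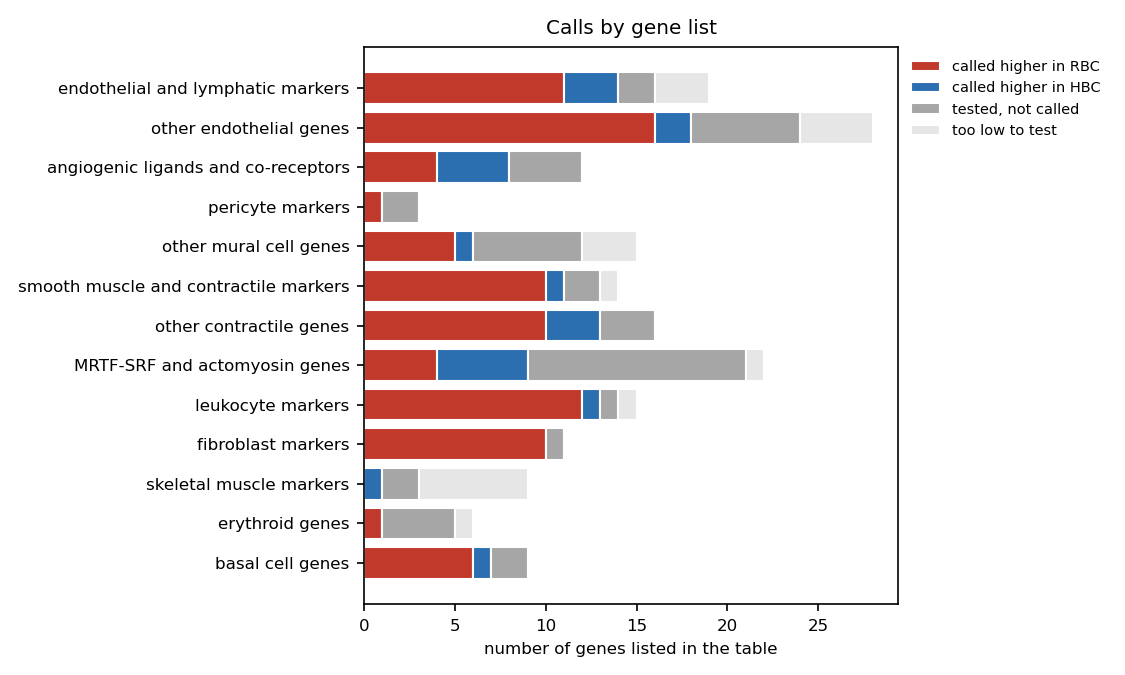
Number of genes in each list that were called higher in the RBC library (red), called higher in HBC libraries (blue), tested without a call (grey) or too low to test (light grey). Under quantile normalization, the 11 endothelial and lymphatic markers called higher in RBCs become 4 and the 16 further endothelial genes become 3.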

How the data were processed

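The authors deposited 1 table of FPKM values with a column per library, matched here to samples by column names and titles. Tools named without roles in the submitters' processing notes are STAR, Cufflinks 2.2.1 and Cuffnorm, with the build mm9. Annotation and strand setting: not given in the sources used here. Depth appeared not to be divided out. In genes with all values below 4, 26.0% of ratios between HBC libraries 1 and 2 lay within 2% of 1, and 0.803% lay within 2% of 1.24, where division by depth would put them. Each library was therefore divided by a median-ratio factor from 11134 genes at 10 or more in every library (1.06 for the RBC library and 0.843, 1.05 and 1.07 for the HBC libraries). Depth in reads stays unknown, and no counting interval is given.

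Genes were tested (16440 of 23281) where the RBC value and the HBC mean averaged at least 1. Limma 3.58.1 (R 4.3.3, lmFit and eBayes with trend, 2 residual degrees of freedom) was run on log2(value + 1), two-sided, with Benjamini-Hochberg adjustment. That scale understates changes of low genes. A fold is a ratio of scaled values and is printed only where each group is at 4 or more. For genes listed at 0 in every HBC library the call rests on limma's moderated spread alone, and no p is printed. The procedure was also run on simulated libraries of genes averaging 1 or more in HBC libraries, with changes placed in genes at 10 or more. The lone simulated library was given the HBC spread. That run therefore covers neither genes near 0 in HBC libraries nor the unknown spread of the RBC library. Members and lists were chosen with earlier results of these data known. All members are reported. Genes outside the set are named by rule, the 2 called genes of each list with the largest change in each direction that are not at 0 in all HBC libraries, and only where a result turns on them. Krt5 and Trp63 are named besides, as basal cell genes. Promoters were picked among called genes with a box, and those of Eng, Kdr and Egfl7 also qualify but are not printed. Vegfa, Vegfc, Angpt1, Pdgfrb, Notch3, Myocd, Car9, Mylpf and the markers listed at 0 were chosen after their values were seen. All 143 entries of 10 further lists were found, 7 of them by an older symbol in RefSeq. Alternatives were other scalings, pseudocounts, filters, no trend, and leaving out each HBC library.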

Additional observations from a re-analysis of the deposited data

How the results depend on the processing

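Of the 26 called marker genes, 13 kept their call and direction in each of the 12 alternatives that tested them, and 19 did so in the alternatives other than quantile normalization. Markers called higher in RBCs numbered 22 as reported, 11 under quantile normalization and 19 to 21 with an HBC library left out, and those called higher in HBCs numbered 4 and 3 to 4. Over all genes, 5621 were called higher in RBCs, 3155 under quantile normalization and 4950 to 5030 with a library left out. Genes called higher in HBCs numbered 2105, 3870 with medians set equal, 3663 under quantile normalization and 1993 to 2005 with a library left out. The median log2 change of the markers (2.63) was 2.13 with medians set equal, 0.55 under quantile normalization, 3.72 with a pseudocount of 0.1, 1.32 with a pseudocount of 5, 2.31 without the filter, 3.07 with a filter at a mean of 5, and 2.65 to 2.78 with a library left out. The endothelial and lymphatic markers called towards RBCs (11 of 16 tested) numbered 4 under quantile normalization and 7 with a pseudocount of 0.1. Signs turned under quantile normalization for Kdr (-0.47), Flt1 (-1.10), Tek (-0.50), Eng (-0.68), Prox1 (-0.58), Actg2 (-0.0216), Des (-0.34), Tpm1 (0.28) and Vegfc (-1.97). Tpm1 also turned with values as deposited (0.067) and equal column sums (0.055), Vegfa with medians set equal (-0.39), and Vegfc with medians set equal (-0.04) and with an HBC library left out (-0.0113 to 0.7558, the lowest without library 2). The cause was not tested. No paired analysis was possible because the RBCs came from a reporter strain and the HBCs from wildtype mice, so no libraries are matched. Values near the worth of single reads limit what can be said of the low endothelial genes.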
